A study of Mus musculus with 16 samples.

Results

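The genes described here are 7 mouse genes of DNA repair and nucleotide metabolism that are linked to the transcription factor p53: *Ddb2*, *Xpc*, *Rrm2b*, *Polk*, *Polh*, *Ercc5* and *Ak1*. They are 7 of the 49452 genes listed in each table, and all 7 passed the filter on low values at both stages. They were picked because several of them moved against other p53 targets when mutant and control libraries were compared, so the differences between those groups are given below as a description, without a test. The 16 RNA-seq libraries come from mutant and control mice. In the mutants *Sas-4* (listed as *Cenpj*), a gene needed to build centrioles, was removed with *K14-Cre*. The keratin promoter of this transgene drives Cre recombinase in stratified epithelia such as the epidermis. Cells of other kinds in a sample, such as dermal or immune cells, keep *Sas-4*. The strain label is FVB/C57BL6 for every library.

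At birth (P0), 4 mutant libraries (fl/fl for Sas-4 and tg/wt for K14-Cre) and 4 control libraries (fl/wt for Sas-4, with 1 floxed allele) were made from back-skin keratinocytes that were freed with enzymes, frozen and never plated. Of these controls, replicates 2 and 3 also carried *K14-Cre*, and replicates 1 and 4 did not. In embryos (E13.5, the age in days), sheets of epidermis gave 4 libraries titled mutant (fl/fl for Sas-4 and tg/wt for K14-Cre) and 4 titled control (fl/wt for Sas-4 and wt/wt for K14-Cre). The E13.5 labels contradict each other, because the column names of the E13.5 table give each library the opposite genotype from its title. The groups are therefore called the libraries titled mutant and titled control, and every E13.5 direction below is turned round if the column names are right.

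Nucleotide excision repair removes bulky and ultraviolet-induced lesions from DNA. DDB2 and XPC find the lesion, the TFIIH complex opens the helix, and the nucleases XPG (encoded by *Ercc5*) and XPF with ERCC1 cut the damaged strand on either side. Translesion synthesis lets replication pass a lesion that was not removed, with polymerases of the Y family such as polymerase kappa (*Polk*) and polymerase eta (*Polh*). Both processes need deoxynucleotides, which ribonucleotide reductase supplies, and *Rrm2b* encodes the small subunit of that enzyme that p53 induces. p53 is stabilised by DNA damage and other stresses and activates genes of cell-cycle arrest, apoptosis and repair. In human cells p53 also activates *DDB2* and *XPC*, whereas induction of *Ddb2* by p53 was found to be lacking in mouse cells.

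The promoters of *Polk* and *Ercc5* are shown because these genes varied together over the libraries. Each runs from 250 bases before to 50 bases after an annotated start site, 5′ to 3′ on the strand of the gene, from RefSeq (build GRCm38.p6, the build also called mm10). *Polk* start site 1 lies at chr13:96519138-96519437 and start site 2 at chr13:96542530-96542829, both on the minus strand, and the *Ercc5* window lies at chr1:44147494-44147793 on the plus strand. Capitals mark a match to the 10-base p53 consensus decamer, searched on both strands.
Polk start site 1: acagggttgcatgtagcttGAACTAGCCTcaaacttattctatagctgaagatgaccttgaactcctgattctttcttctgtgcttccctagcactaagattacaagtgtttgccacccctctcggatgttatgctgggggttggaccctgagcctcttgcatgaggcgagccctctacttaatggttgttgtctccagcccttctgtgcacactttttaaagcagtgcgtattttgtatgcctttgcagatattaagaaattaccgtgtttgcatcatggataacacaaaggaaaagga
Polk start site 2: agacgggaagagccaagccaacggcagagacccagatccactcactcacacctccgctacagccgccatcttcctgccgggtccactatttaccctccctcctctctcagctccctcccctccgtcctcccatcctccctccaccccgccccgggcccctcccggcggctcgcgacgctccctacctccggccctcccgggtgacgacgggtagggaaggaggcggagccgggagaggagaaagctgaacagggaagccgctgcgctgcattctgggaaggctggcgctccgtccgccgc
Ercc5 start site 1: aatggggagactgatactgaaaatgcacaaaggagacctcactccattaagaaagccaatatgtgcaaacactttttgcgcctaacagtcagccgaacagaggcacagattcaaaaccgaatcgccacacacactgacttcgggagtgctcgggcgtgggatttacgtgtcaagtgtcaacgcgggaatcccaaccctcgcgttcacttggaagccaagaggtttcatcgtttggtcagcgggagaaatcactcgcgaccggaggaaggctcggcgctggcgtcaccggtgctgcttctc
The match in *Polk* begins at position -231 relative to start site 1 and is the sole match in the 8 promoters that the table holds for 4 of the genes (*Polk*, *Polh*, *Ercc5* and *Ak1*). Of all 32851 promoters of the same length, 8.36% hold at least 1 match. A match is a description of the letters and not a binding site. *Polk* start site 2 and the *Ercc5* start site lie in windows with 25 and 21 CpG dinucleotides, and *Polk* start site 1 in a window with 4, against a median of 7 over all promoters.

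The deleted gene was read first, as a check of the labels. In P0 mutants *Cenpj* had 1.09 to 1.52 FPKM (fragments scaled to transcript length and to the mapped fragments of the library), against 3.22 to 4.35 FPKM in P0 controls. At E13.5 it had 8.66 to 9.17 FPKM in the libraries titled mutant, against 3.56 to 3.85 FPKM in those titled control, which goes against the titles. *Cdkn1a*, the p53 target that encodes the cell-cycle inhibitor p21, served as a second check. It averaged 219 ± 20.8 FPKM in P0 mutants and 99.9 ± 10.7 FPKM in P0 controls (SD, n = 4 each). At E13.5 its mean was 7.08 ± 1.92 FPKM in the libraries titled mutant and 66.5 ± 9.35 FPKM in those titled control (SD, n = 4 each), which also goes against the titles. The directions of *Cenpj* and *Cdkn1a* at E13.5 matched those at P0 only with the column names. The summed FPKM of a library was 637984 to 740238 in P0 mutants, 605744 to 645991 in P0 controls, 549463 to 557512 in E13.5 libraries titled mutant and 546593 to 584238 in those titled control. Y-linked genes were read in 3 P0 mutants and 1 P0 control, and in 1 library of each E13.5 group.

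At P0, *Polk* and *Ercc5* were higher in mutants and *Ddb2*, *Xpc*, *Rrm2b* and *Ak1* were lower, each with no overlap between the 4 mutant and the 4 control libraries, while the groups overlapped for *Polh*. Thus the groups did not overlap for 6 of the 7 genes, and they did not overlap for 43.5% of all 13033 genes tested at P0. The limma test with an adjusted p threshold of 0.05 called 2 of the 7 higher and 4 lower, where it called 42.3% of all tested genes (11.7% higher and 30.7% lower). Since the genes were chosen on this contrast, nothing is read from these counts. With median-of-ratios scaling 2 were called higher and 2 lower, with quantile normalization 2 and 1, and against the 2 controls with *K14-Cre* alone 2 and 1. Of all 13033 tested genes, these settings called 4979, 4800 and 3002 in that order (2459 higher and 2520 lower, 2320 and 2480, 829 and 2173). The median log2 fold change of the 7 genes was -0.42, beside -0.15 for all tested genes. With median-of-ratios scaling these medians were -0.27 and -0.003, and with quantile normalization -0.22 and -0.004. In these bulk samples fewer cells of a type and less RNA per cell cannot be told apart. Fold changes are on the scale of log2(FPKM + 1), which understates the change of genes with low values.

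At E13.5 by title, *Polk*, *Ercc5* and *Ak1* were lower and *Ddb2* was higher in the libraries titled mutant without overlap, while the groups overlapped for *Xpc*, *Polh* and *Rrm2b*. The groups thus did not overlap for 4 of the 7 genes, and they did not overlap for 28.1% of all 12866 genes tested. The limma test called 2 of the 7 higher and 3 lower, where it called 25.2% of all tested genes (11.8% higher and 13.4% lower), and again nothing is read from this. Without the 2 libraries titled control that carry a label number of 67 (the other 6 share another number), 3 of the 7 were called, each of them lower. In that setting 1267 of all 12866 tested genes were called (536 higher and 731 lower). The median log2 fold change of the 7 genes was -0.03 and that of all tested genes 0.00.

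**Figure D1:**
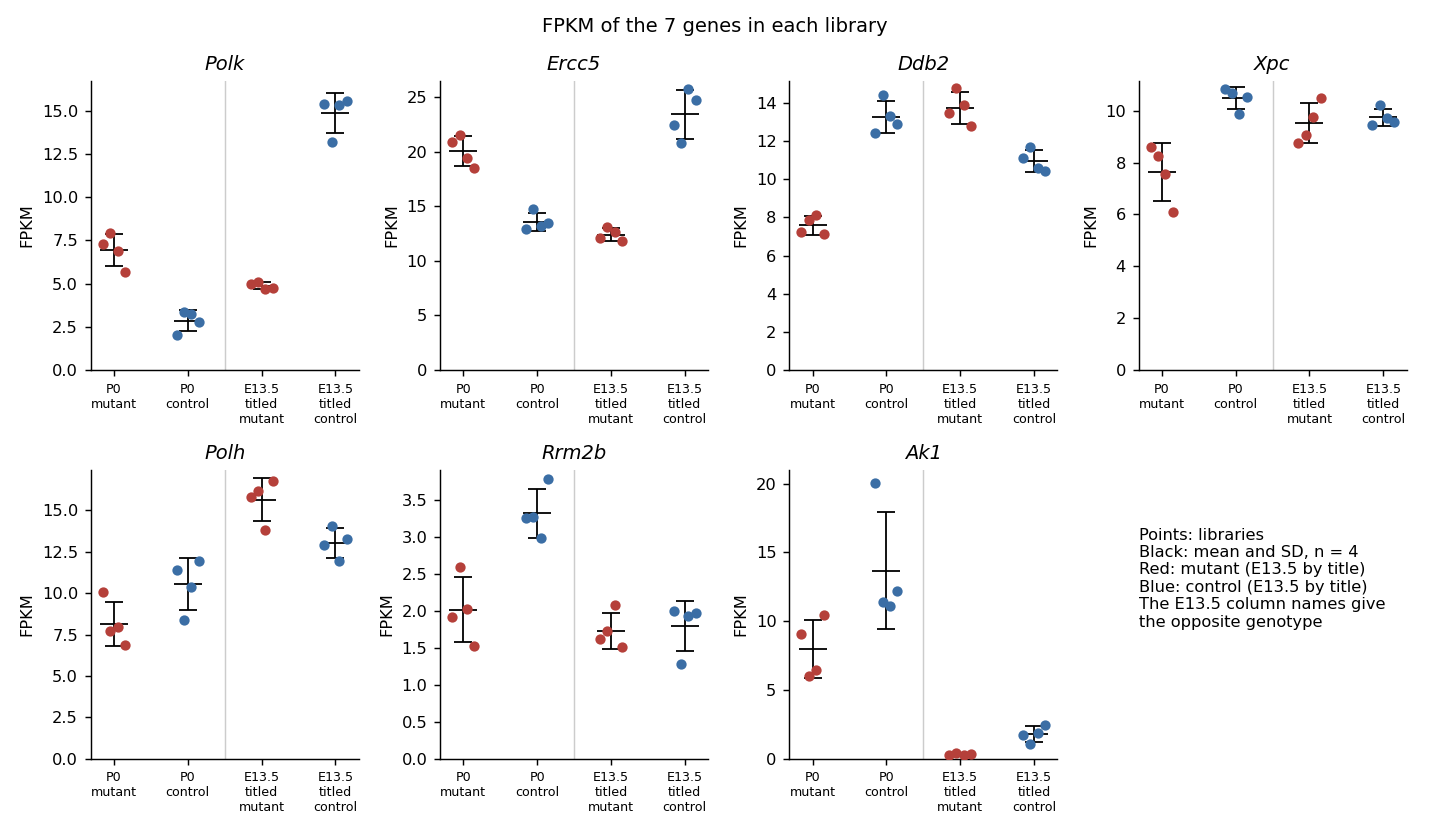
FPKM of the 7 genes in each library (points), with P0 left and E13.5 right in each panel, mutant libraries in red and control libraries in blue (E13.5 by title), and the mean and SD of 4 libraries in black on an axis that starts at 0. *Polk* and *Ercc5* were high in P0 mutants and in E13.5 libraries titled control, *Ddb2* was low in the same libraries, and *Ak1* was below 2.5 FPKM in all E13.5 libraries.

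On the log2(FPKM + 1) scale *Polk* had the largest fold change of the 7 genes at both stages, though with a pseudocount of 0.1 that of *Ak1* was larger at E13.5. *Polk* (ENSMUSG00000021668, chromosome 13 of mm10 from 96480689 to 96542485, minus strand) encodes polymerase kappa, which inserts bases opposite bulky adducts. P0 mutants had 7.30, 7.91, 6.87 and 5.68 FPKM, against 2.01, 3.37, 3.24 and 2.75 FPKM in P0 controls. The lowest mutant was thus well above the highest control. The mean was 6.94 ± 0.941 FPKM in mutants and 2.84 ± 0.616 FPKM in controls (SD, n = 4 each), 2.44-fold higher (log2 fold change 1.05, standard error 0.14). The controls with *K14-Cre* averaged 3.31 FPKM and those without it 2.38 FPKM. At E13.5, *Polk* had 4.98, 5.10, 4.71 and 4.74 FPKM in the libraries titled mutant, against 15.4, 13.2, 15.4 and 15.6 FPKM in those titled control. The 4 libraries titled mutant lay within a narrow range far below the others. Their mean was 4.88 ± 0.189 FPKM, against 14.9 ± 1.141 FPKM in the libraries titled control (SD, n = 4 each, log2 fold change -1.43, standard error 0.06). The libraries titled control were 3.05-fold higher.

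*Ercc5* took the same directions as *Polk*. *Ercc5* (ENSMUSG00000026048, chromosome 1 of mm10 from 44147744 to 44181260, plus strand) encodes XPG, the nuclease that cuts on the 3′ side of the lesion. P0 mutants had 20.9, 21.5, 19.5 and 18.5 FPKM, against 12.9, 14.7, 13.2 and 13.498 FPKM in P0 controls. The groups were apart by more than the range of either one, with means of 20.1 ± 1.37 FPKM in mutants and 13.6 ± 0.809 FPKM in controls (SD, n = 4 each). The ratio of these means was 1.48 (log2 fold change 0.53, standard error 0.08). At E13.5, the libraries titled mutant had 12.1, 13.1, 12.6 and 11.8 FPKM, against 22.4, 20.8, 25.8 and 24.7 FPKM in those titled control. All 4 libraries titled mutant lay below every other E13.5 library. The mean was 12.4 ± 0.571 FPKM in the libraries titled mutant and 23.4 ± 2.26 FPKM in those titled control (SD, n = 4 each), and the libraries titled control were 1.89-fold higher (log2 fold change -0.86, standard error 0.07).

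*Polh*, the other Y-family polymerase chosen, differed less. *Polh* (ENSMUSG00000023953, chromosome 17 of mm10 from 46172004 to 46202625, minus strand) encodes polymerase eta, which copies accurately across ultraviolet-induced thymine dimers. P0 mutants had 10.05, 7.69, 7.94 and 6.89 FPKM, against 11.4, 8.39, 10.4 and 11.96 FPKM in P0 controls. Mutant replicate 1 lay above control replicate 2, so the groups overlapped, with means of 8.14 ± 1.35 FPKM in mutants and 10.5 ± 1.57 FPKM in controls (SD, n = 4 each, log2 fold change -0.34, standard error 0.14). At E13.5, the libraries titled mutant had 15.8, 16.2, 13.8 and 16.8 FPKM, against 12.9, 14.1, 11.9 and 13.3 FPKM in those titled control. Replicate 3 titled mutant lay below replicate 2 titled control, and the other 3 libraries titled mutant lay above all controls. The log2 fold change was 0.25 (standard error 0.07).

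*Ddb2* moved against *Polk* and *Ercc5* at both stages. *Ddb2* (ENSMUSG00000002109, chromosome 2 of mm10 from 91211572 to 91236982, minus strand) encodes the subunit of the UV-damage binding complex that recognises photolesions. P0 mutants had 7.23, 7.87, 8.11 and 7.12 FPKM, against 12.4, 14.4, 13.3 and 12.9 FPKM in P0 controls. Values were tight in both groups and did not overlap, with means of 7.58 ± 0.485 FPKM in mutants and 13.3 ± 0.848 FPKM in controls (SD, n = 4 each). Controls were 1.75-fold higher (log2 fold change -0.73, standard error 0.08). At E13.5, *Ddb2* had 13.45, 14.8, 13.9 and 12.8 FPKM in the libraries titled mutant, against 11.1, 11.7, 10.6 and 10.4 FPKM in those titled control. The libraries titled mutant were all higher, by 1.25-fold on the means (log2 fold change 0.30, standard error 0.06). The last 2527 bases of *Ddb2* overlap *Acp2*, a lysosomal phosphatase gene on the other strand, and no source used here says whether counting used strand. *Acp2* averaged 3.85 ± 1.08 FPKM in P0 mutants and 5.49 ± 0.624 FPKM in P0 controls (SD, n = 4 each), and its part in the result was not tested.

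*Xpc* and *Rrm2b* were lower in P0 mutants and overlapped at E13.5. *Xpc* (ENSMUSG00000030094, chromosome 6 of mm10 from 91489305 to 91515888, minus strand) encodes the damage sensor that starts repair across the whole genome. P0 mutants had 8.60, 8.24, 7.57 and 6.09 FPKM, against 10.8, 10.7, 9.86 and 10.5 FPKM in P0 controls. The mutants spread more widely than the controls, and their highest value stayed under the lowest control (log2 fold change -0.42, standard error 0.11). At E13.5, the libraries titled mutant had 8.76, 9.07, 9.77 and 10.5 FPKM, against 9.46, 10.2, 9.71 and 9.56 FPKM in those titled control. The titled control range lay within the wider titled mutant range (log2 fold change -0.03, standard error 0.06).

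*Rrm2b* (ENSMUSG00000022292, chromosome 15 of mm10 from 37923952 to 37961318, minus strand) was low throughout. P0 mutants had 1.92, 2.60, 2.03 and 1.53 FPKM, against 3.25, 3.27, 2.996 and 3.79 FPKM in P0 controls. Controls were 1.65-fold higher on the means (log2 fold change -0.53, standard error 0.12). At E13.5, the libraries titled mutant had 1.62, 1.73, 2.08 and 1.51 FPKM, against 2.01, 1.28, 1.94 and 1.97 FPKM in those titled control. The lowest and the highest values belonged to different groups than at P0, with titled control replicate 2 lowest and titled mutant replicate 3 highest (log2 fold change -0.03, standard error 0.11). The gene model *Gm3362* lies within *Rrm2b* on the same strand over 466 bases, so that reads could have been split between them.

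*Ak1* was the gene whose level differed most between the stages. *Ak1* (ENSMUSG00000026817, chromosome 2 of mm10 from 32621758 to 32635058, plus strand) encodes cytosolic adenylate kinase, which interconverts adenine nucleotides. P0 mutants had 9.04, 6.01, 6.47 and 10.5 FPKM, against 20.02, 11.4, 11.1 and 12.2 FPKM in P0 controls. The highest mutant was just under the lowest control, and control replicate 1 stood far above the rest (log2 fold change -0.70, standard error 0.22). At E13.5, the libraries titled mutant had 0.292, 0.410, 0.300 and 0.313 FPKM, against 1.72, 1.06, 1.83 and 2.46 FPKM in those titled control. *Ak1* passed the filter at E13.5 through the 4 libraries titled control alone, so it had to differ between the groups. The log2 fold change was -1.04 (standard error 0.15), and by title *Ak1* was lower in mutants at both stages. The 2 tables were normalized apart, so levels set across stages are a description.

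**Figure D2:**
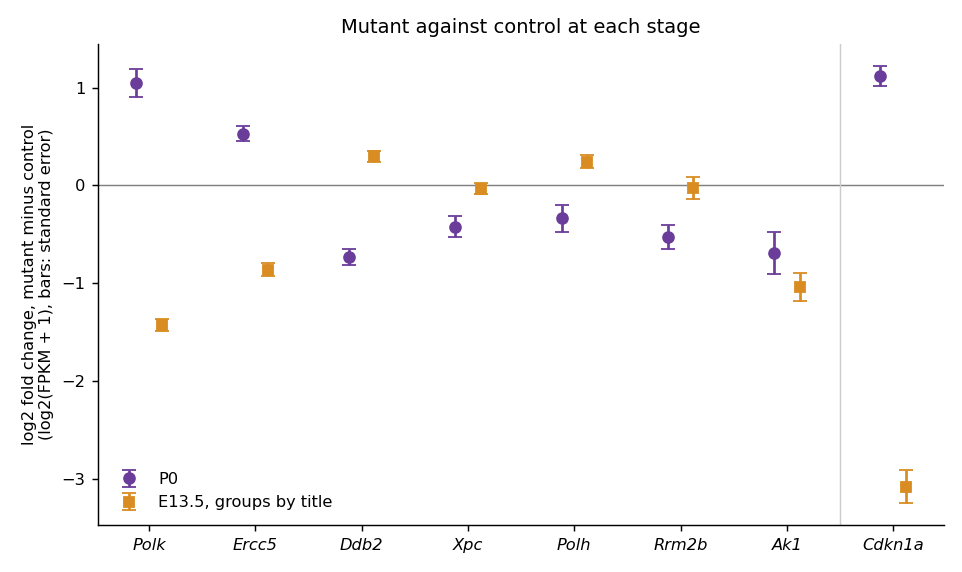
Log2 fold change (mutant minus control, log2(FPKM + 1)) of the 7 genes and of *Cdkn1a* at P0 (circles) and at E13.5 by title (squares), with bars for the standard error of the limma fit over 4 libraries a group. *Polk*, *Ercc5* and *Cdkn1a* were above 0 at P0 and below 0 at E13.5, *Ddb2* had the opposite signs, and *Ak1* was below 0 at both stages.

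Since FPKM values are scaled to transcript length, the order of the 7 genes could be read within a group. In P0 mutants *Ercc5* was highest, and its range overlapped that of no other of the 7 genes. It was followed by *Polh*, *Ak1*, *Xpc*, *Ddb2* and *Polk*, with overlap between neighbours among these 5, and *Rrm2b* was lowest. In P0 controls *Ak1*, *Ercc5* and *Ddb2* came first with overlapping ranges, then *Polh* and *Xpc*, and *Rrm2b* and *Polk* came last with overlapping ranges. In the E13.5 libraries titled mutant the order was *Polh*, *Ddb2*, *Ercc5*, *Xpc*, *Polk*, *Rrm2b* and *Ak1*, and ranges overlapped between *Polh* and *Ddb2* and between *Ddb2* and *Ercc5*. In those titled control it was *Ercc5*, *Polk*, *Polh*, *Ddb2*, *Xpc*, *Rrm2b* and *Ak1*, with overlap between *Polk* and *Polh* and between *Rrm2b* and *Ak1*. *Polk* thus held the fifth place in the libraries titled mutant and the second in those titled control.

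Over the 16 libraries, with log2(FPKM + 1) centred within each stage, *Polk* and *Ercc5* had a Pearson r of 0.98. *Ddb2* ran against both, with r of -0.79 with *Polk* and -0.76 with *Ercc5*. *Xpc*, *Rrm2b* and *Ddb2* had r of 0.71 to 0.76 with each other. *Cdkn1a* had r of 0.94 with *Polk*, 0.95 with *Ercc5*, 0.51 with *Ak1*, -0.64 with *Ddb2* and -0.63 with *Polh*. The points share their genotype group and stage, so these values mostly restate the group differences and are given without a test.

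The gene most like each of the 7 was looked up by the same measure among 11857 genes. For *Polk* it was *Ccng1*, which encodes cyclin G1 (r = 0.99), followed by *Zmat3*, which encodes a zinc-finger RNA-binding protein (r = 0.99). Both are p53 targets. For *Ercc5* it was *Dmrtb1* (r = 0.99), followed by *Ccng1* (r = 0.99). *Ddb2* was most like *Acsf2* and *Cnih2* (r = 0.98 each), and *Xpc* most like *Col4a2* and *Nfe2l1* (r = 0.96 each). The closest genes to *Rrm2b* were *Gcnt1* and *Slx4ip* (r = 0.93 each), those to *Polh* were *Erbb2* (r = 0.91) and *Ubr2* (r = 0.90), and those to *Ak1* were *Ikbke* and *Nub1* (r = 0.90 each).

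Other p53 targets gave the background against which the 7 genes had been picked. Of 38 tested at P0, 28 were higher and 4 lower in mutants by limma at an adjusted p of 0.05, with a median log2 fold change of 0.87. The counts were 31 and 2 with median-of-ratios scaling and 31 and 4 with quantile normalization. Against the controls with *K14-Cre* alone they were 28 and 2. The highest were *Ccng1*, the receptor gene *Eda2r* and the proapoptotic *Pmaip1*. *Eda2r* had 0.254 to 1.07 FPKM in P0 controls, so it passed the filter through the mutants, and it is counted among the 28. *Ccng1* averaged 67.6 ± 11.5 FPKM in P0 mutants and 20.4 ± 4.79 FPKM in P0 controls (SD, n = 4 each, limma adjusted p = 8.49e-05). The 4 that were lower at P0 were *Trim32*, *Sesn1*, *Cd82* and *Cdip1*. *Sesn1*, a stress-induced regulator of growth signalling, averaged 7.79 ± 1.86 FPKM in P0 mutants and 13.7 ± 0.418 FPKM in P0 controls (SD, n = 4 each, limma adjusted p = 0.00221). *Trim32* averaged 4.69 ± 0.494 FPKM in P0 mutants and 8.91 ± 0.859 FPKM in P0 controls (SD, n = 4 each, limma adjusted p = 0.000303). The call of *Cd82* (limma adjusted p = 0.0245) was lost under 9 of 18 alternatives.

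At E13.5 by title, 30 of the 38 were lower and 0 higher by limma, with 32 at an unadjusted p under 0.05, and the median log2 fold change was -1.06. The lowest were *Cdkn1a*, *Trp53inp1* and *Zfp365*, at -3.08, -2.91 and -2.88 on the log2 scale. *Zfp365* had 0.189 to 0.452 FPKM in the libraries titled mutant, so it passed the filter through those titled control alone. *Fas*, *Ephx1* and *Eda2r* were also low in the libraries titled mutant, with means of 0.165, 0.387 and 0.565 FPKM. Genes that pass the filter in this way had to differ between the groups, and they are counted among the 30. *Sesn1* and *Cd82* did not pass (limma adjusted p = 0.0908 and 0.0808), and their log2 values were 0.15 and 0.23. The values of *Polk* and *Ercc5* thus had the sign of the list's median at both stages, and *Ddb2* and *Polh* had the opposite sign at both.

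**Figure D3:**
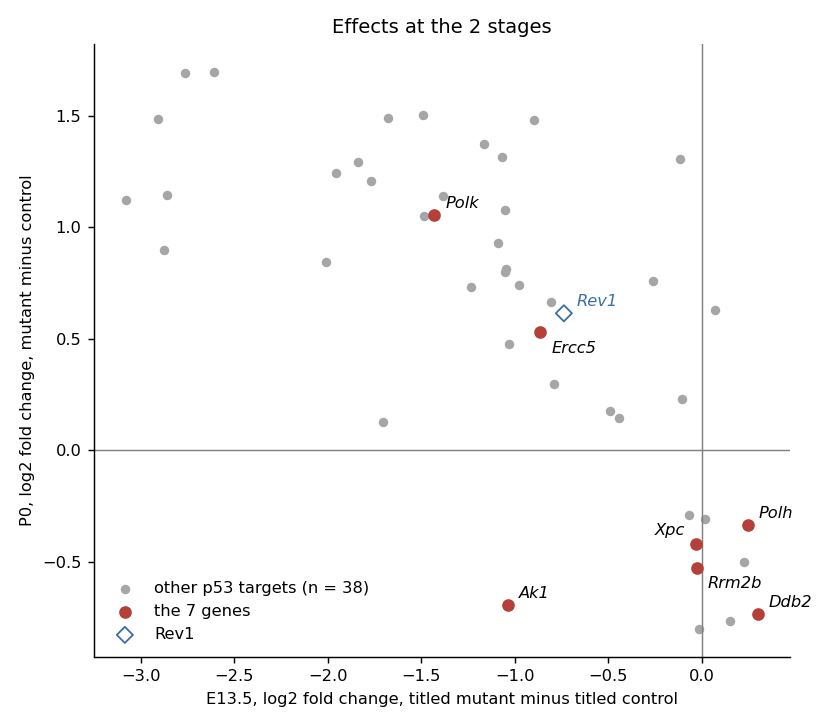
Log2 fold change at E13.5 by title (horizontal axis) against that at P0 (vertical axis), mutant minus control, for the 7 genes (red), 38 other p53 targets (grey) and *Rev1* (open diamond). *Polk*, *Ercc5* and *Rev1* lie at upper left among the other p53 targets, *Ddb2* and *Polh* at lower right, and *Ak1* at lower left. Grouping E13.5 by column name would mirror the plot from left to right.

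The partners of DDB2, XPC and XPG in excision repair were read from lists that leave out the 7 genes. The counts for this list and the next ones stand beside 42.3% of all tested genes called at P0 and 25.2% at E13.5. Of 6 other genes of lesion recognition tested, 1 was lower at P0 and 0 were called by limma at E13.5 (1 at an unadjusted p under 0.05). The gene lower at P0 was *Cetn2*, which encodes a partner of XPC, at 19.1 ± 3.29 FPKM in mutants and 24.1 ± 1.10 FPKM in controls (SD, n = 4 each, limma adjusted p = 0.0396), a call lost under 12 of 18 alternatives. Of 5 genes of transcription-coupled repair, limma called 0 at P0 (1 at an unadjusted p under 0.05) and 0 at E13.5 (0 at an unadjusted p under 0.05).

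Of 16 genes of helix opening and incision, 1 was higher and 7 were lower at P0 (3 and 2 with median-of-ratios scaling, 3 and 4 with quantile normalization). The higher one was *Ercc1*, whose product pairs with XPF to cut on the 5′ side, opposite to XPG. It averaged 33.9 ± 5.76 FPKM in P0 mutants and 20.3 ± 1.77 FPKM in P0 controls (SD, n = 4 each), a log2 fold change of 0.70 with a limma adjusted p of 0.0019. *Gtf2h2*, a subunit of TFIIH, averaged 14.8 ± 1.57 FPKM in P0 mutants and 20.4 ± 1.37 FPKM in P0 controls (SD, n = 4 each, limma adjusted p = 0.00467). *Rpa1*, which encodes the large subunit of the single-strand binding protein, was lower too (log2 fold change -0.49, limma adjusted p = 0.00733), though not against the 2 controls with *K14-Cre* alone (limma adjusted p = 0.0624). At E13.5 by title 2 of these genes were higher and 3 lower, and the smallest adjusted p belonged to *Gtf2h3*, another TFIIH subunit (log2 fold change 0.15, limma adjusted p = 0.00828). *Mnat1*, which helps assemble the TFIIH kinase, and *Rpa3*, the small subunit of the single-strand binding protein, were lower by small amounts (limma adjusted p = 0.0108 and 0.0123, log2 values -0.16 and -0.27). Neither call held without the 2 libraries with label number 67 (limma adjusted p = 0.0979 and 0.119).

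Among 14 other translesion synthesis genes, *Rev1* moved as *Polk* and *Ercc5* did. *Rev1* encodes the Y-family scaffold that brings the other translesion polymerases together. It averaged 17.9 ± 2.77 FPKM in P0 mutants and 11.3 ± 1.11 FPKM in P0 controls (SD, n = 4 each), with a log2 fold change of 0.61 ± 0.12 (standard error) and a limma adjusted p of 0.00358. Mutants ran from 13.96 to 20.3 FPKM and controls from 10.1 to 12.7 FPKM, with no overlap. At E13.5 its mean was 14.3 ± 1.09 FPKM in the libraries titled mutant and 24.5 ± 2.25 FPKM in those titled control (SD, n = 4 each), with a log2 fold change of -0.74 ± 0.07 (SE) and a limma adjusted p of 0.000243. At P0 the call was lost against the 2 controls with *K14-Cre* alone (limma adjusted p = 0.0582).

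At P0 *Rev1* was the 1 translesion gene called higher and 9 were called lower (1 and 4 with median-of-ratios scaling, 2 and 4 with quantile normalization, 0 and 3 against the controls with *K14-Cre* alone). They included *Primpol*, whose product restarts stalled forks, and *Rev3l*, the catalytic subunit of polymerase zeta. *Primpol* averaged 2.71 ± 0.273 FPKM in P0 mutants and 5.29 ± 0.690 FPKM in P0 controls (SD, n = 4 each, limma adjusted p = 0.000543). *Rev3l* averaged 7.20 ± 1.30 FPKM in P0 mutants and 11.4 ± 1.08 FPKM in P0 controls (SD, n = 4 each, limma adjusted p = 0.00563), a call lost against the controls with *K14-Cre* alone (limma adjusted p = 0.0814). By title at E13.5, *Primpol* was higher (limma adjusted p = 0.0305, log2 fold change 0.26), which 9 of 17 alternatives did not call, and *Rev1*, *Pcna* and *Ube2b* were lower. The change of *Pcna*, the sliding clamp, was small (log2 fold change -0.14, limma adjusted p = 0.0114), as was that of *Ube2b*, an enzyme that ubiquitinates the clamp (log2 fold change -0.15, limma adjusted p = 0.0146). Both calls were lost without the libraries with label number 67 (limma adjusted p = 0.1002 and 0.102).

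Of 15 genes of deoxynucleotide supply, 3 were higher and 4 lower at P0 (4 and 2 with median-of-ratios scaling, 4 and 3 with quantile normalization), and 1 was higher and 5 lower at E13.5 by title. At P0 the nucleoside diphosphate kinase genes *Nme1* and *Nme2* were higher (log2 fold changes 0.73 and 0.66, limma adjusted p = 0.000804 and 0.00215). They are close paralogs and neighbours, and counting could split reads between them. *Rrm2* encodes the small subunit of ribonucleotide reductase that is the alternative to that of *Rrm2b*. It averaged 95.9 ± 16.1 FPKM in P0 mutants and 70.3 ± 10.1 FPKM in P0 controls (SD, n = 4 each), a log2 fold change of 0.44 with a limma adjusted p of 0.0358. The call of *Rrm2* was lost under 7 of 18 alternatives. The salvage kinase gene *Dck* fell to 11.6 ± 1.08 FPKM in P0 mutants, against 18.2 ± 0.811 FPKM in P0 controls (SD, n = 4 each, limma adjusted p = 0.000561). By title at E13.5 *Rrm2* and the large reductase subunit gene *Rrm1* were lower (log2 fold changes -0.27 and -0.20, limma adjusted p = 0.00194 and 0.00624), and the thymidine kinase gene *Tk1* was higher (log2 fold change 0.28, limma adjusted p = 0.00566). Of these, the call of *Rrm1* was lost without the libraries with label number 67 (limma adjusted p = 0.0574).

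Of 9 other adenylate kinase and phosphotransfer genes tested at P0, 2 were higher and 1 lower (5 and 0 with median-of-ratios scaling, 3 and 1 with quantile normalization), where *Ak1* was lower. *Ampd2*, an AMP deaminase gene, was among those higher (log2 fold change 0.42, limma adjusted p = 0.00966), though not against the controls with *K14-Cre* alone (limma adjusted p = 0.124). The mitochondrial creatine kinase gene *Ckmt1* had a limma adjusted p of 0.0489, and its call was lost under 14 of 18 alternatives. By title at E13.5 1 of 10 was higher and 2 were lower. The creatine kinase gene *Ckb* fell to 41.0 ± 5.91 FPKM in the libraries titled mutant, against 66.7 ± 7.90 FPKM in those titled control (SD, n = 4 each, limma adjusted p = 0.00228), and the mitochondrial *Ak4* was higher (log2 fold change 0.24, limma adjusted p = 0.0136).

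Over the 6 pathway lists together, 7 genes were higher and 22 lower of 65 tested at P0, and 5 were higher and 13 lower of 66 at E13.5 by title. Of all tested genes, limma called 42.3% at P0 (11.7% higher and 30.7% lower) and 25.2% at E13.5 (11.8% higher and 13.4% lower). Nothing particular to the lists is read from these counts. At P0 the split of the list genes followed the scaling, with 13 higher and 8 lower under median-of-ratios scaling and with 12 and 12 under quantile normalization. Against the P0 controls with *K14-Cre* alone, 4 were higher and 5 lower, and without the E13.5 libraries with label number 67, 3 were higher and 3 lower. The median log2 fold change of the 65 genes at P0 was -0.14, beside -0.15 for all tested genes.

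**Figure D4:**
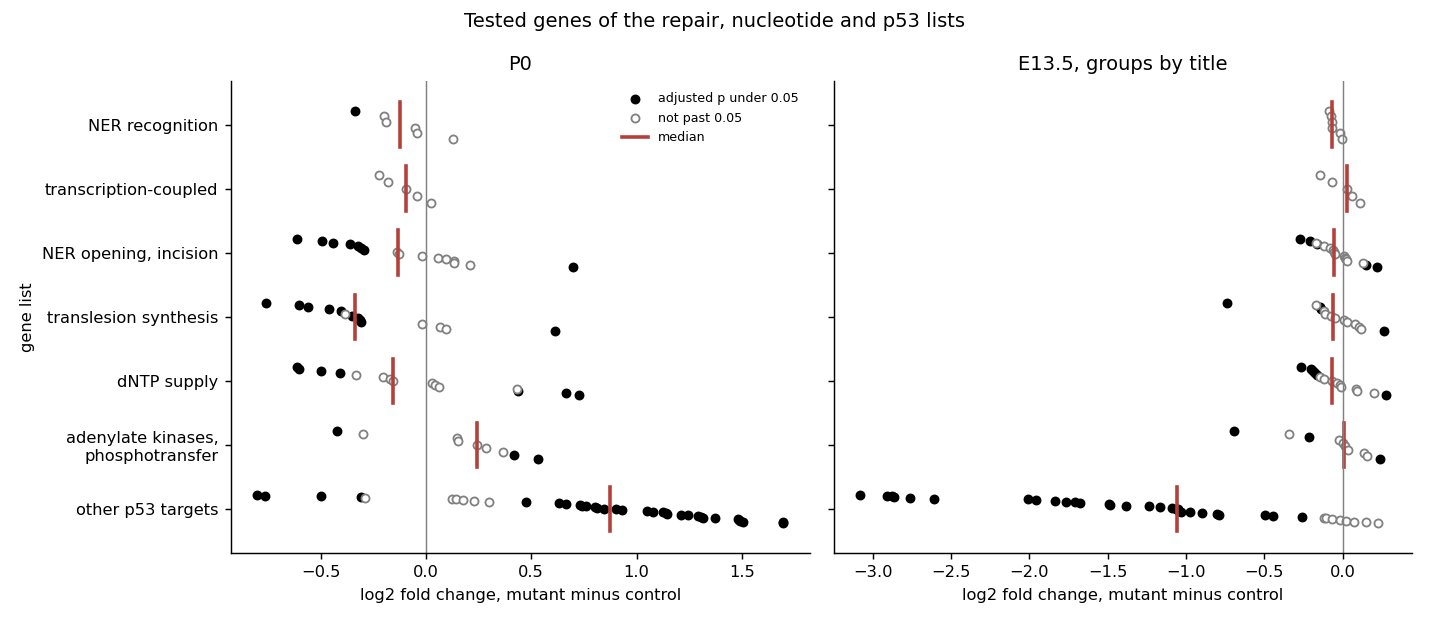
Log2 fold change (mutant minus control) of each tested gene of the 6 pathway lists and of the other p53 targets at P0 (left) and E13.5 by title (right), filled where the limma adjusted p was under 0.05, with the median of each list as a red bar. The other p53 targets had a median of 0.87 at P0 and -1.06 at E13.5. At P0 the translesion synthesis list had a median of -0.34 and the adenylate kinase and phosphotransfer list one of 0.24, and *Rev1* was the 1 translesion gene called higher.

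Markers of other cell types moved with genotype at P0. The summed levels below run over all listed genes with values, including those that were not tested. All 8 hair follicle markers were lower in mutants (summed level 19.7 to 34.9 FPKM in mutants and 201 to 260 FPKM in controls), as were the 5 tested myeloid and Langerhans cell markers (30.2 to 36.5 FPKM in mutants and 118 to 176 FPKM in controls) and the 4 tested T cell markers (1.82 to 2.30 FPKM in mutants and 7.999 to 18.1 FPKM in controls). Of 3 tested fibroblast markers 2 were lower (79.6 to 163 FPKM in mutants and 174 to 268 FPKM in controls). Of 5 melanocyte markers 4 were higher (293 to 643 FPKM in mutants and 201 to 267 FPKM in controls), and of 13 proliferation genes 6 were lower (651 to 825 FPKM in mutants and 832 to 894 FPKM in controls). The 5 basal keratinocyte markers, which define the labelled cells, summed to 21536 to 27197 FPKM in P0 mutants and 15915 to 18880 FPKM in P0 controls, and to 2221 to 2610 FPKM in E13.5 libraries titled mutant and 2350 to 2687 FPKM in those titled control. At P0 *Krt14* and *Itgb4* were called higher and the other 3 did not pass (median log2 fold change of the 5 0.05, lowest -0.48). By title at E13.5 *Trp63* was called higher and the other 4 did not pass. By title at E13.5 the 4 tested melanocyte markers were lower (35.9 to 37.8 FPKM in the libraries titled mutant and 50.4 to 61.5 FPKM in those titled control) and 2 of 3 tested suprabasal keratinocyte markers were higher (154 to 370 FPKM in the libraries titled mutant and 100.1 to 151 FPKM in those titled control). Of 5 tested fibroblast markers *Col1a2* was higher and the other 4 did not pass (116 to 150 FPKM in the libraries titled mutant and 105.3 to 124 FPKM in those titled control). The T cell markers *Cd3g* and *Cd3d* and the Langerhans cell marker *Cd207* were listed at 0 in every E13.5 library. *Cd74* was the 1 myeloid and Langerhans cell marker tested at E13.5, and limma called it higher by title (0.36 on the log2 scale). That list summed to 8.68 to 9.78 FPKM in titled mutant libraries, against 5.53 to 8.14 FPKM in titled control ones. The call of *Cd74* was lost without the libraries with label number 67 (0.28 on the log2 scale). The part of these cell types in the values of the 7 genes was not tested.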

How the data were processed

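RNA-seq was read as 2 deposited tables of FPKM, 1 for each stage, with 49452 genes and 8 libraries each. Per the labels and the methods of the study, the authors made the FPKM values with the QuickNGS pipeline, after bcl2fastq (2.17.1.14 and 2.18.0.12) and FastQC (0.11.5), on mm10. The aligner, the strand setting and the read depth are not given in the sources used here. From the low values, relative depth was 0.953 to 1.11 in P0 mutants, 0.927 to 1 in P0 controls, 0.841 to 0.914 in E13.5 libraries titled mutant and 0.940 to 1.04 in those titled control. No libraries were identical. Replicates are separate libraries by their labels, so that p-values measure the spread between them.

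Values were taken as log2(FPKM + 1), and genes with an FPKM of at least 1 in 4 of the 8 libraries were tested within each stage with limma (3.58.1, R 4.3.3, trended prior), Benjamini-Hochberg adjusted over all tested genes. The script was tested on simulated data. The 7 genes and the lists were chosen with earlier results of these data known. Named genes were the 7, *Cenpj*, *Cdkn1a*, up to 3 genes of smallest adjusted p for each list and stage, the 3 highest and 3 lowest other p53 targets for each stage, and the 2 genes most correlated with each of the 7. *Cdip1* and *Rrm2* at P0, and *Primpol*, *Fas*, *Ephx1* and *Eda2r* at E13.5, were named after their values were seen. *Rbx1*, *Ak6* and *Dglucy* were not analysed here. A further gene that the rule names is not reported here. Same-numbered replicates did not vary together (correlations -0.014 to 0.068 at E13.5 and -0.024 to 0.111 at P0) and were not treated as pairs. Alternatives were another pseudocount (0.1), quantile and median-of-ratios scaling, other filters (none, or a mean FPKM of 5), limma without trend or with array weights, each replicate left out, the replicate block, sex as a term, and other choices of E13.5 labels and P0 controls.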

Additional observations from a re-analysis of the deposited data

Results flagged for a closer look

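In 5 of 108 groups of 4 libraries examined (4.63%, where chance gives about 1 in 20), 1 library stood far from the other 3. At P0, *Ak1* had 20.02 FPKM in control replicate 1, against 11.1 to 12.2 FPKM in the other controls. At E13.5, replicate 2 titled control was low for *Rrm2b* (1.28 FPKM, against 1.94 to 2.01 FPKM in the others of its group) and for *Polk* (13.2 FPKM, against 15.4 to 15.6 FPKM). Replicate 1 titled control was low for *Rpa3* (45.4 FPKM, against 53.1 to 54.5 FPKM), and replicate 4 titled mutant was low for *Trp53inp1* (5.26 FPKM, against 5.56 to 5.61 FPKM).

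For 15 of 42 genes examined, many of them named for a small adjusted p or a large change, the groups did not overlap at either stage and the directions were opposite when E13.5 was grouped by title. Over all 11852 genes tested at both stages this held for 1351 (11.4%). The difference between the stages was not tested, and grouped by column name each of these genes has the same direction at both. The P0 log2 fold change minus the E13.5 one was 2.48 for *Polk*, 1.39 for *Ercc5* and -1.03 for *Ddb2*. For other repair and nucleotide genes it was 1.35 (*Rev1*), -1.02 (*Primpol*), -0.51 (*Gtf2h3*), 0.92 (*Nme1*) and 0.83 (*Nme2*). For other p53 targets it was 4.21 (*Cdkn1a*), 4.39 (*Trp53inp1*), 3.78 (*Zfp365*), 4.31 (*Ccng1*), 4.46 (*Eda2r*) and 2.996 (*Pmaip1*), and for the deleted gene *Cenpj* it was -2.11. *Eda2r* at both stages and *Zfp365* at E13.5 passed the filter through the group where they were high.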

How the results depend on the processing

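With E13.5 grouped by column name every direction is turned round. The log2 fold changes are then -0.30 for *Ddb2*, 1.43 for *Polk*, -0.25 for *Polh*, 0.86 for *Ercc5* and 1.04 for *Ak1*. Those of the other named genes are -1.08 (*Cenpj*), -0.15 (*Gtf2h3*), 0.16 (*Mnat1*), 0.27 (*Rpa3*), 0.74 (*Rev1*), -0.26 (*Primpol*), 0.14 (*Pcna*), 0.15 (*Ube2b*), 0.27 (*Rrm2*), -0.28 (*Tk1*), 0.20 (*Rrm1*), 0.69 (*Ckb*), -0.24 (*Ak4*), 0.22 (*Cmpk1*), 3.08 (*Cdkn1a*), 2.91 (*Trp53inp1*) and 2.88 (*Zfp365*). Among the 7 genes, a pseudocount of 0.1 gave -1.58 for *Polk* and -2.08 for *Ak1* at E13.5, and 1.27 for *Polk* and -0.71 for *Rrm2b* at P0. Without the libraries with label number 67, *Ercc5* had -0.75 at E13.5. At P0 median-of-ratios scaling gave -0.58 for *Ddb2*, -0.27 for *Xpc* and 0.69 for *Ercc5*, and quantile normalization gave -0.54, -0.22 and 0.67 for them, -0.24 for *Rrm2b* and 1.30 for *Polk*. No value of *Polk*, *Ercc5*, *Ddb2*, *Polh* or *Ak1* changed sign other than by column name.

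Over all genes, 3243 were called at E13.5 and 5515 at P0. Without the libraries with label number 67 the E13.5 count was 1267 (6 in the pathway lists), and with P0 controls that carry *K14-Cre* alone 3002 were called at P0 (9 in the lists), with fewer libraries in both. Leaving out 1 library gave 2196 to 3283 at E13.5 and 4401 to 6451 at P0, with 12 to 18 and 20 to 36 in the lists. At P0 the split was 1520 higher and 3995 lower, 2459 and 2520 after median-of-ratios scaling, and 2320 and 2480 after quantile normalization. The samples share a number without being pairs, and with the replicate block the counts were 2766 and 5130 (16 and 27 in the lists). Read depth is not known, so that the precision of low genes such as *Rrm2b* and E13.5 *Ak1* cannot be given.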
